A study of Mus musculus with 4 samples.

Results

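Intergenic RIF1 peaks that lie close to genes were taken from the list of RIF1 chromatin immunoprecipitation sequencing (ChIP-seq) peaks in primary mouse B cells. A listed interval was included when it lay on an autosome, was narrower than 50 kb, overlapped no annotated gene, stayed more than 1 kb clear of every transcript start, and had its midpoint at most 50 kb from the nearest start of a protein-coding transcript (GENCODE M1 genes, mouse build mm9). Of the 16332 intervals in the list, 2875 met this rule. They made up 18.4% of the 15635 autosomal peaks (95% Wilson interval 17.8 to 19%) and 64% of the 4489 autosomal peaks outside genes. The other classes used for comparison were 1614 intergenic peaks beyond 50 kb (distal peaks), 3612 peaks in gene bodies away from starts and 7534 peaks at transcript starts.

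RIF1 was precipitated through an HA epitope from splenic B cells that had been isolated with anti-CD43 beads, activated with 5 µg/ml LPS and 5 ng/ml IL-4 and harvested after 72 h. The labels hold 2 Rif1FH samples, from Rif1FH/FH mice in which the endogenous protein carries a Flag-HA tag, and 2 Rif1WT samples, from C57BL/6 (Rif1WT/WT) mice without the tag, all with the same activation. The deposited list combined both Rif1FH samples and gave only positions, so there was no height, no depth and no value for any single sample, and the untagged control was not compared here. Autosomes therefore served as the units of every test, which measures spread along the genome and not between animals or cultures.

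RIF1 controls the order in which parts of the genome replicate and recruits protein phosphatase 1 to chromatin. In B cells it also acts with 53BP1 in protecting broken DNA ends during class switching. Intergenic sequence near genes holds many enhancers, where lineage factors such as PU.1 and EBF1 and signal-dependent factors such as NF-kB, AP-1 and STAT6 bind, together with sites of the boundary factor CTCF.

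Short stretches around motif matches show the sequence features that distinguished these peaks from the intergenic sequence around them. For each of the 8 motifs that were more frequent in the peaks, the match closest to a peak midpoint was taken among peaks next to the B cell, signalling and replication genes described further on. These examples were chosen after motif results were known. Sequences are from mm9, forward strand, with the match in capitals.
PU.1 match, Pik3ap1, chr19:41477096-41477155: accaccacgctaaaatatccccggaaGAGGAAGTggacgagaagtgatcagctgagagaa
ETS match, Cd79b, chr11:106169603-106169662: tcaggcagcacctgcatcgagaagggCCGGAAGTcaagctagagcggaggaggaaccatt
AP-1 match, Inpp5d, chr1:89504525-89504584: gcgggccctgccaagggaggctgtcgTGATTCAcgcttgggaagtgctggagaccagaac
NF-kB match, Nfkbiz, chr16:55788499-55788558: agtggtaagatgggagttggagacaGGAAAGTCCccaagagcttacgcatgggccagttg
EBF1 match, Socs2, chr10:94903507-94903566: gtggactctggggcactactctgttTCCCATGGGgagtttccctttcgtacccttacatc
RUNX match, Cd180, chr13:103475450-103475509: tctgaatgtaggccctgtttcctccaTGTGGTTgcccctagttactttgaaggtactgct
E-box match, Plcg2, chr8:120005582-120005641: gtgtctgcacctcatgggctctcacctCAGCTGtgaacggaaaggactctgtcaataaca
CTCF match, Cdc7, chr5:107388641-107388700: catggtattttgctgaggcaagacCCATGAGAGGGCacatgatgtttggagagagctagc

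The spellings searched on both strands were GAGGAAGT for PU.1, CCGGAAGT for ETS, TGANTCA for AP-1, GGANTTTCC for NF-kB, CCCNNGGGA for EBF1, AACCACA for RUNX and CAGCTG for the E-box. The CTCF spelling joined CCA, AG and GGC with gaps of 2 bases. PU.1 and ETS spellings share the bases GGAAGT, and the E-box reads the same on both strands. A match is a run of letters and does not show that the factor was bound.

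Longer stretches, 300 bases centred on the midpoint, are given for the peak closest to its gene in each of the 6 gene lists of the studied cells (on any autosome but 18). They lie next to Ebf1, a factor of early B cell identity, Il21r, the interleukin 21 receptor, Cd72, a B cell co-receptor, Tab2, an adaptor of the TLR and NF-kB pathway, Stat5b, a cytokine-activated transcription factor, and Cdc7, the kinase that triggers origin firing. Capitals mark matches of the same 8 motifs.
Ebf1, chr11:44425817-44426116: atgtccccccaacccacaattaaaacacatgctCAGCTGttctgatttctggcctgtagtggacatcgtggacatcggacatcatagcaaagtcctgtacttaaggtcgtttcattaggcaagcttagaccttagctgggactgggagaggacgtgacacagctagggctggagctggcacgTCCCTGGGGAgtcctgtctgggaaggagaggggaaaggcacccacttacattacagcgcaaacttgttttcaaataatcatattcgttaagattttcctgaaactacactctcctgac
Il21r, chr7:132743212-132743511: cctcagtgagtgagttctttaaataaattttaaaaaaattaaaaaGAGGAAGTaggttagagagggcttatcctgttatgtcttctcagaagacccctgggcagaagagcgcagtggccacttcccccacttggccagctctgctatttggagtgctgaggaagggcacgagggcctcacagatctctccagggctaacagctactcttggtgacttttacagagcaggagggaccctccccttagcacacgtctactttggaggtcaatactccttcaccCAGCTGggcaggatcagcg
Cd72, chr4:43469769-43470068: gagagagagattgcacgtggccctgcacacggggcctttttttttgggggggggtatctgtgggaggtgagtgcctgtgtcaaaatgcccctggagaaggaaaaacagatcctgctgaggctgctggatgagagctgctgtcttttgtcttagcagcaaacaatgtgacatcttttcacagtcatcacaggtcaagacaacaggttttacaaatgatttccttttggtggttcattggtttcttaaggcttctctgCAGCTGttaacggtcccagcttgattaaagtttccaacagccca
Tab2, chr10:7678883-7679182: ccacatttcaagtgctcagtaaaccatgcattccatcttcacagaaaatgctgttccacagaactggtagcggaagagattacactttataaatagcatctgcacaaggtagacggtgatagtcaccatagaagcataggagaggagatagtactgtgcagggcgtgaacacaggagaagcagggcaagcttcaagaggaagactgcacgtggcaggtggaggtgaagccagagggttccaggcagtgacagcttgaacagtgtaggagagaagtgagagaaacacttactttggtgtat
Stat5b, chr11:100714305-100714604: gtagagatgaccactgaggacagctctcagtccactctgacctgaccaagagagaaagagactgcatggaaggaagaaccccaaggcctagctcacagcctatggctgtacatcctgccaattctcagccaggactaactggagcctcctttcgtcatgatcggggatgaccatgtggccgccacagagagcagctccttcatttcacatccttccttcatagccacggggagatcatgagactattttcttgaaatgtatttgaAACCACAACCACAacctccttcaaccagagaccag
Cdc7, chr5:107388529-107388828: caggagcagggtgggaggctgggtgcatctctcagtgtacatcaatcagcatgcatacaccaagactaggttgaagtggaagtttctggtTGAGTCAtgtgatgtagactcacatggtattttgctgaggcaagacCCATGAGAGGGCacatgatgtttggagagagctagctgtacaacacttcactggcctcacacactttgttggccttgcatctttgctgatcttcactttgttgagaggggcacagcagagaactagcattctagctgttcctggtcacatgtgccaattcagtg

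The Ebf1 stretch came from a peak 4.85 kb upstream of its gene and held an EBF1 match that read on both strands. In the Cdc7 stretch, 4.66 kb upstream, an AP-1 and a CTCF match were both present. The Il21r stretch, 3.58 kb upstream, held a PU.1 and an E-box match, and the Tab2 stretch held none of the 8.

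Intergenic RIF1 peaks were denser near genes than far from them. Sequence outside genes and start windows and at most 50 kb from a coding start is called eligible sequence below, and it spanned 487 Mb against 878.5 Mb beyond that limit. Near-gene peak density was 6.08 ± 1.29 per Mb (SD, n = 19 autosomes) and distal density 1.94 ± 0.68 per Mb. The log2 ratio was 1.68 ± 0.50 and was above 0 on 19 of 19 autosomes (exact two-sided sign-flip permutation test over autosomes, adjusted exact p = 1.34e-05 over 14 tests). Its unadjusted p, 3.81e-06, was the smallest that 19 autosomes can give.

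**Figure D1:**
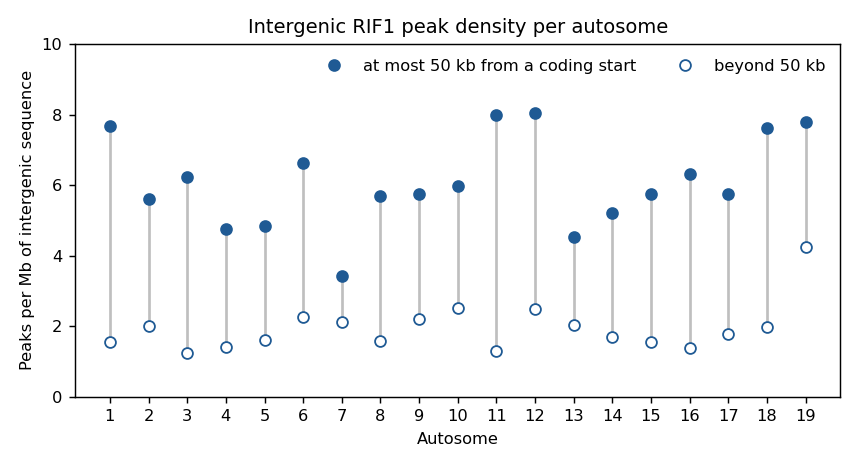
Intergenic RIF1 peaks per Mb on each autosome, at most 50 kb from a coding transcript start (filled circles) and beyond 50 kb (open circles). The filled circle lies above the open one on all 19 autosomes, with the smallest ratio, 1.6, on chromosome 7 and the largest, 6.2, on chromosome 11.

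Density was not even among autosomes. It was lowest on chromosome 7, with 144 peaks or 3.42 per Mb, and highest on chromosome 12, with 157 peaks or 8.04 per Mb. Chromosome 19 combined a high near-gene density of 7.78 per Mb with a distal density of 4.26 per Mb, the highest distal value of the 19.

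The peaks were spread over the whole range of distances. They lay between 1.26 and 49.98 kb from the nearest coding start, with 30.2% within 10 kb and 23.2% beyond 30 kb. Density was 6.59 ± 2.39 per Mb at 2 to 10 kb and 5.45 ± 1.27 per Mb at 30 to 50 kb, a log2 ratio of 0.23 ± 0.52 that was above 0 on 12 of 19 autosomes and did not pass (adjusted exact p = 0.0939). When the wide intervals, which hold no peaks, were left out of the eligible sequence, the log2 ratio was 0.35 and passed (adjusted exact p = 0.0129). Leaving out single autosomes also moved this comparison across the threshold (log2 ratio up to 0.28, adjusted exact p = 0.0472).

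On the 5′ side of the nearest coding start lay 2116 of the 2875 peaks. Their share was 73.5 ± 4.1%, against 67.1 ± 2.2% of the eligible sequence, a difference of 6.42 ± 5.24 percentage points seen on 18 of 19 autosomes (exact sign-flip permutation test, adjusted exact p = 7.12e-05). The sides were compared by distance as a description. At 2 to 5 kb, 306 upstream peaks gave 7.32 per Mb and 40 downstream peaks gave 3.46 per Mb. The eligible sequence in this bin was 41.83 Mb upstream and 11.56 Mb downstream. Downstream sequence is eligible only past the end of a gene, which a peak must clear with its whole width, so the sides are not fully alike. Between 20 and 30 kb the values were 6.88 and 5.34 per Mb.

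**Figure D2:**
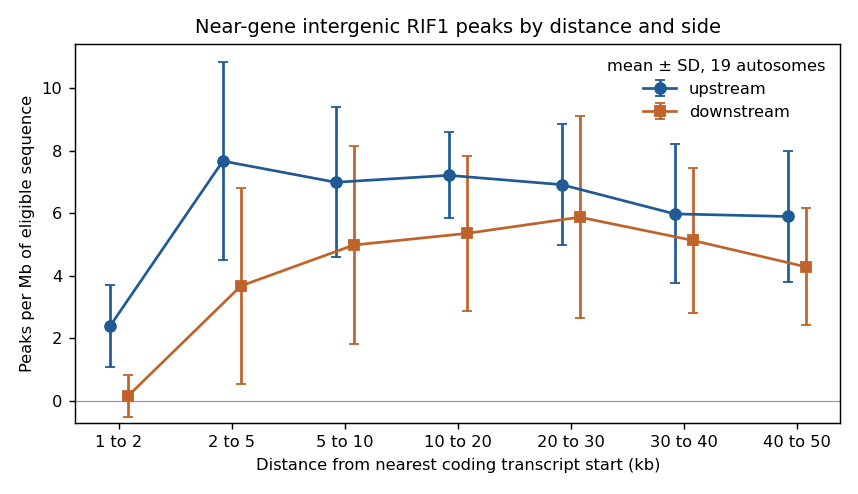
RIF1 peaks per Mb of eligible sequence by distance from the nearest coding transcript start, upstream (circles) and downstream (squares), as mean ± SD over 19 autosomes. Upstream means lie above downstream means in all bins, and the bin from 1 to 2 kb is low on both sides, where a peak must clear the excluded 1 kb window with its whole width.

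At the 50 kb limit itself, values just inside were 49.98 kb for a peak near Larp1, 49.95 kb for one near Slc38a11 and 49.94 kb for one near Gm9805. Just outside were peaks at 50.02 kb from Atp12a, 50.04 kb from Tmem26 and 50.05 kb from Dhx15.

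Peaks clustered at genes whose own start carried RIF1. Genes with a peak at a coding transcript start were the nearest gene for 62.8 ± 5.0% of near-gene peaks, and for 34.1 ± 5.1% of eligible sequence. The difference of 28.7 ± 6.7 percentage points was positive on 19 of 19 autosomes (adjusted exact p = 1.34e-05). Counted over all autosomes, near-gene peaks reached 11.1 per Mb around genes with such a start peak and 3.29 per Mb around the others. Both densities include sequence in wide intervals, where neither start peaks nor near-gene peaks are listed. Of the 487 Mb of eligible sequence, 411.6 Mb lay outside them, so part of this gap follows from how the list is built.

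They also lay close to further peaks. Another listed peak was within 10 kb for 48.5 ± 6.2% of near-gene peaks and 37.1 ± 9.1% of distal peaks, a difference of 11.4 ± 9.6 points that was positive on 16 of 19 autosomes (adjusted exact p = 0.000206). The class limits favour this difference, since a distal peak, over 50 kb from every coding start, cannot have a coding start peak within 10 kb. Against gene body peaks, at 46.2 ± 4.1%, the difference of 2.34 ± 6.99 points did not pass (adjusted exact p = 0.187), whereas with a limit of 25 kb in place of 50 kb it rose to 7.92 points and passed (adjusted exact p = 0.000267). The tighter limit by itself keeps only peaks closer to coding starts, where start peaks lie. The nearest other peak was another near-gene peak in 47% of cases, a start peak in 41.6% and a distal peak in 4%. The class limits shape this split, as only near-gene peaks toward the 50 kb limit can have a distal peak close by.

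In 99 places, 3 or more of these peaks followed each other closely. The most peaks in such a series were 6, in 2 places. One of these, within 20.1 kb, lay upstream of Tnfrsf13b, which encodes the B cell receptor TACI (chr11:60917466-60937607). Its peaks were 547, 740, 5937, 3027, 1763 and 2122 bp wide, in order along the chromosome, and the closest was 3.71 kb from the Tnfrsf13b start.

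The other series of 6 peaks spanned 23.8 kb between Psma6, a proteasome subunit gene, and Nfkbia, which encodes the inhibitor IκBα of NF-kB (chr12:56530550-56554340). Of these 6, the 4 on the Psma6 side lay 22.66 to 39.93 kb downstream of the Psma6 start. All 6 peaks assigned to Nfkbia lay downstream of it, at distances of 5.55 to 41.7 kb. Neither gene had a listed peak at its own start, whereas Myb and Tnfrsf13b each had one.

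At Myb, a transcription factor gene of blood progenitors and lymphocytes, all 6 peaks lay upstream, 17.73 to 43.69 kb from the start, and 5 of them formed a series of 18.7 kb. The widest of the Myb peaks covered 4447 bp and the narrowest 568 bp. The peak at 39.57 kb held PU.1, NF-kB, EBF1 and E-box matches in its central 1 kb, and the 2 at 31.62 and 34.09 kb held the ETS-IRF composite.

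In all, 1996 of 21418 autosomal coding genes (9.32%) were the nearest gene of a near-gene peak. Most, 1417, had 1 such peak, 397 had 2, 182 had 3 or more and 31 had 5 or more. The 10 genes with most were Bcar3 and Sorl1 with 7 each and Bhlhe41, Bmp2k, Gm4968, Grap, Myb, Nfkbia, Pmaip1 and Rnf145 with 6 each. Grap encodes an adaptor of lymphocyte receptor signalling, Pmaip1 the pro-apoptotic protein NOXA, Bhlhe41 a transcriptional repressor, and Sorl1 a sorting receptor. Bcar3 had all 7 upstream, from 13.06 to 46.24 kb, and Sorl1 had 5 upstream and 2 downstream. Beside 34.2% of all autosomal coding genes with a start peak, 7 of these 10 had one and Gm4968, Nfkbia and Pmaip1 had none.

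Gene lists for the cells and their stimuli were compared with the 9.32% of all coding genes, as a description without a test. B cell receptor signalling genes were nearest to a peak in 12 of 28 cases (42.9%), IL-4 and JAK-STAT genes in 7 of 18 (38.9%), germinal centre and plasma cell genes in 8 of 27 (29.6%), LPS and NF-kB genes in 8 of 28 (28.6%) and B cell transcription factors in 5 of 24 (20.8%). DNA replication genes were near a peak in 2 of 32 cases (6.25%). Lists of other blood lineages gave 3 of 24 for T cell genes (12.5%), 4 of 22 for myeloid genes (18.2%) and 2 of 15 for erythroid genes (13.3%). The erythroid genes were Hbb-b2 and Tfrc, and Tfrc, the transferrin receptor, is used by most dividing cells. Genes differ in how much eligible sequence surrounds them, and many list genes overlap a wide interval, where peaks are not listed (17 of the 24 B cell transcription factors, for instance).

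**Figure D3:**
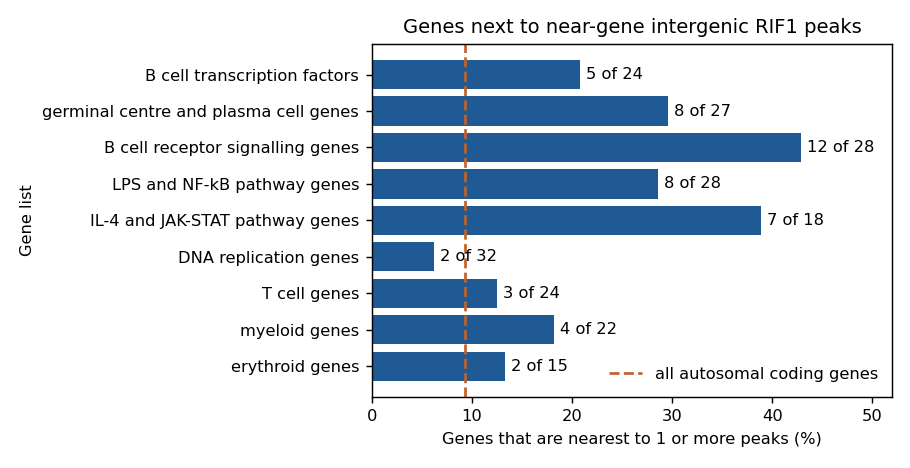
Share of the genes in each list that are the nearest coding gene of 1 or more near-gene intergenic RIF1 peaks, with counts beside the bars. The dashed line marks 9.32%, the share among all autosomal coding genes; only the DNA replication list lies below it.

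Per Mb of eligible sequence outside wide intervals, where all genes together had 6.98 peaks, the 5 B cell and stimulus lists again had the highest values. IL-4 and JAK-STAT genes had 59.4 per Mb, B cell receptor genes 47.9, germinal centre and plasma cell genes 41.4, B cell transcription factors 37.6 and LPS and NF-kB genes 27. The T cell list had 17.3 per Mb, the myeloid list 15.9, the replication list 8.85 and the erythroid list 7.67. Every one of these densities rests on 19 peaks or fewer. Single genes weigh heavily in some: Myb had 6 of the 12 peaks at B cell transcription factors, and Nfkbia 6 of the 17 at LPS and NF-kB genes.

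Among B cell transcription factors, Pou2af1, the octamer co-activator, had 3 peaks, all upstream, after the 6 of Myb. Ebf1, Runx1 and Zeb2 had 1 each. Spi1, which encodes PU.1, was not matched by symbol and is not among the 24 genes counted. Among germinal centre and plasma cell genes, Btg2, an antiproliferative gene, had 5 peaks at 4.25 to 18 kb and Prdm1, which encodes the plasma cell regulator BLIMP1, had 4 at 10.5 to 29.6 kb. Il21r had 3, Xbp1 of the secretory programme and the co-stimulatory Cd86 had 2 each, and Igj, Mcl1 and Myc had 1 each.

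For B cell receptor signalling, Plcg2, the phospholipase downstream of the receptor, had 3 peaks, all upstream at 16.6 to 27.5 kb. Pik3ap1, Prkcb and Vav2 had 2 each. The receptor chain Cd79b, the co-receptor Cr2, the kinase Lyn, the adaptor Blnk, the phosphatases Inpp5d and Ptprc, Cd72 and Malt1 had 1 each.

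In the LPS and NF-kB list, the LPS co-receptor gene Cd180 and the nuclear inhibitor gene Nfkbiz had 3 peaks each, after the 6 of Nfkbia. The LPS receptor Tlr4, the subunits Nfkb1 and Rel, the kinase Map3k7 and Tab2 had 1 each. The IL-4 and JAK-STAT list had peaks at both ends of the pathway, with 2 at Il4ra, the IL-4 receptor, 3 at the kinase Jak2 and 1 at Jak1, 1 at Stat5b, and 4 and 3 at the feedback inhibitors Socs2 and Cish. The 4 Socs2 peaks lay 20.8 to 25.7 kb from its start.

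Of the replication genes, Cdc7 had 2 peaks, at 4.66 and 39.6 kb, and Ppp1cb, a catalytic subunit of protein phosphatase 1, had 1. Genes of the origin recognition complex, the MCM helicase and Rif1 itself were not the nearest gene of any near-gene peak. Start peaks were listed for 16 of the 32 replication genes (50%), beside 34.2% of all autosomal coding genes. In the other lists this share ran from 9.09% of myeloid genes to 57.1% of LPS and NF-kB genes.

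In the T cell list, Ctla4 had 4 peaks, Il7r 3 and Icos 1. The myeloid list had 2 each at the cytokine receptors Csf2ra and Csf3r and 1 each at Cebpe and S100a9.

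Sizes did not set near-gene peaks apart from other intergenic peaks. Widths ran from 295 to 7887 bp, with quartiles of 821.5, 1207 and 1833.5 bp. Median width per autosome was 1205 ± 80 bp for near-gene and 1201 ± 111 bp for distal peaks, a difference of 4.21 ± 140 bp (adjusted exact p = 0.896). Gene body peaks were 1155 ± 52 bp wide, and the difference of 50.5 ± 106 bp did not pass (adjusted exact p = 0.0753), although it did when peaks under 1 kb apart were merged or when single autosomes were left out. The 3 widest near-gene peaks were those near Prss39 (7887 bp, chr1:34535294-34543180), Obfc2a (7153 bp, chr1:51565518-51572670) and Lrrc33 (7129 bp, chr16:32168322-32175450). All 3 lay upstream of their genes.

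Base composition differed from that of eligible sequence without a peak, which was taken from the whole of each autosome and not only from beside the peaks. In the central 1 kb, GC content was 47.3 ± 0.73%, against 42.9 ± 0.74% in 1 kb windows of eligible sequence without a peak, higher by 4.38 ± 0.55 points on 19 of 19 autosomes (adjusted exact p = 1.34e-05). Distal peaks had 46.1 ± 1.15%, lower than near-gene peaks by 1.20 ± 0.84 points (higher in near-gene peaks on 16 of 19 autosomes, adjusted exact p = 7.12e-05). The ratio of observed to expected CpG was 0.252 ± 0.018 in near-gene peaks and 0.162 ± 0.007 in eligible windows (adjusted exact p = 1.34e-05), and 0.241 ± 0.022 in distal peaks (adjusted exact p = 0.0939). A CpG ratio over 0.6, as in CpG islands, was found in 5.91% of near-gene peaks, 0.395% of eligible windows and 64.7% of start peaks. Distal peaks had such a ratio in 3.78% and gene body peaks in 4.54%.

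Motifs of PU.1 and the wider ETS family, factors with a GGAA core, showed the steepest excess relative to background. In percentage points the E-box difference was the largest, at 13.2 ± 4.4. A PU.1 match was present in the central 1 kb of 14.5 ± 2.7% of near-gene peaks per autosome and in 6.42 ± 0.29% of eligible windows. The share was higher in peaks on 19 of 19 autosomes (exact sign-flip permutation test, adjusted exact p = 1.05e-05 over 11 motifs). For all motifs, this central window runs past the edges of peaks under 1 kb and leaves out part of wider peaks. Pooled over autosomes, these matches were in the central windows of 408 peaks, beside a background of 6.42% of windows. The ETS spelling was rarer, at 2.80 ± 1.26% and 0.634 ± 0.084%, also higher on all 19 (background 0.625%, adjusted exact p = 1.05e-05).

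Signal-dependent and B lineage motifs followed. AP-1 matches were in 34.2 ± 4.1% of peaks (background 26.5%) and E-box matches, read by E2A and other bHLH factors, in 45.5 ± 4.1% (background 32.2%), both higher on 19 of 19 autosomes (adjusted exact p = 1.05e-05). NF-kB matches were in 5.47 ± 1.89% (background 3.26%), higher on 17 of 19 (adjusted exact p = 7.79e-05), and EBF1 matches in 15.9 ± 3.3% (background 9.53%), higher on 18 of 19 (adjusted exact p = 3.36e-05). RUNX matches showed a small excess, 25.4 ± 3.4% beside a background of 23.1% (16 of 19, adjusted exact p = 0.00365).

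CTCF matches were in 11.8 ± 2.8% of near-gene peaks (background 7%), higher on 18 of 19 autosomes (adjusted exact p = 3.5e-05). No difference passed for the octamer ATGCAAAT, read by OCT2 (7.61 ± 1.53%, background 7.99%), the ETS-IRF composite GGAANTGAA (12.2 ± 3.6%, background 12.2%) or the STAT6 spelling, TTC and GAA 4 bases apart (24.7 ± 3.6%, background 25.7%), with adjusted exact p = 0.471, 0.94 and 0.247. The mean differences were -0.30 ± 1.65, 0.06 ± 3.65 and -1.02 ± 3.36 percentage points.

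Motif frequencies move with GC content, which differed between peaks and windows. Among windows of 45 to 50% GC only, PU.1, ETS, AP-1, NF-kB, RUNX, E-box and CTCF matches remained more frequent in peaks. The ETS spelling holds a CpG, and windows were not matched for CpG ratio, so the part of CpG content in the ETS excess was not tested. EBF1 no longer passed, at 15.3% against 13.4% (adjusted exact p = 0.0774). The octamer changed sides, to 7.64% in peaks against 4.82% in windows (adjusted exact p = 0.000238). G-quadruplex sequences, 4 runs of 3 or more G with 1 to 7 bases between them, also changed sides. In all windows they were in 21.4 ± 4.3% of peaks (background 16.8%, adjusted exact p = 0.000234), and within 45 to 50% GC they were in 19.8% of peaks and 22.7% of windows (adjusted exact p = 0.0293).

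**Figure D4:**
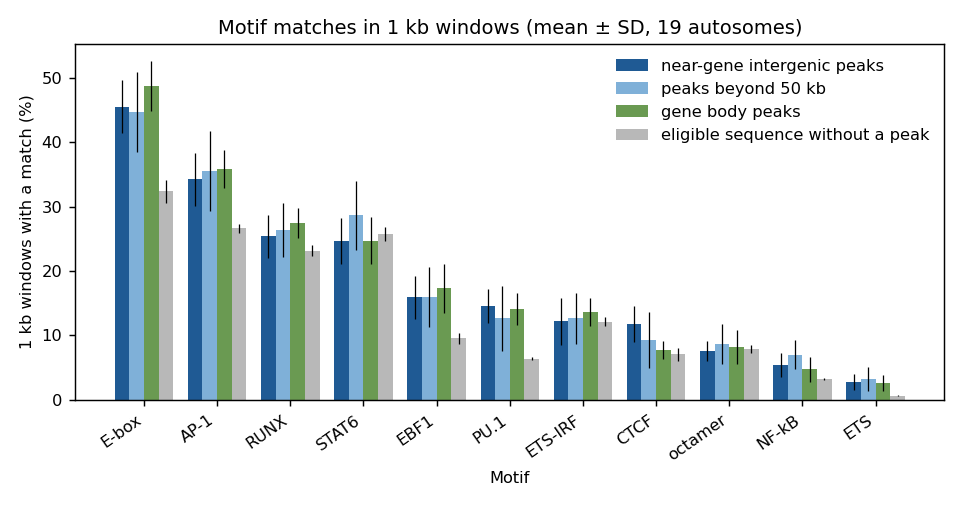
Share of 1 kb windows with a match of each of 11 motifs (mean ± SD over 19 autosomes) in near-gene intergenic peaks, distal peaks, gene body peaks and eligible sequence without a peak. The 3 classes of peaks stand above the grey bars for PU.1 and ETS, at 14.5% against 6.42% and 2.80% against 0.634% in near-gene peaks, and the 4 bars are close for the ETS-IRF composite.

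Motif content was similar to that of the other RIF1 peaks away from starts, with CTCF and the E-box as exceptions. Against gene body peaks, CTCF matches were more frequent near genes, 11.8 ± 2.8% against 7.80 ± 1.40%, on 17 of 19 autosomes (adjusted exact p = 0.000336 over 11 motifs). E-box matches were less frequent, 45.5 ± 4.1% against 48.7 ± 3.9%, being lower on 15 autosomes (adjusted exact p = 0.00529). Against distal peaks, 0 of 11 motifs passed the adjusted threshold, and NF-kB and STAT6 had unadjusted exact permutation p = 0.0296 and 0.0306 (adjusted exact p = 0.168 for both), with lower shares near genes. The PU.1 difference from distal peaks was 1.89 ± 5.85 points, so that sizeable differences either way were within the spread between autosomes.

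Matches of PU.1 and ETS were densest at the middle of the peaks. In the 200 bp on each side of the midpoint, PU.1 had 0.216 and 0.198 matches per kb, and 0.0626 to 0.0644 per kb at the outer ends, 1800 to 2000 bp away. ETS had 0.0435 and 0.0383 per kb at the centre and 0.0087 and 0.00522 per kb at the ends. CTCF was less sharply placed, with 0.158 and 0.12 per kb at the centre and 0.122 and 0.103 per kb at the ends. Octamer matches were at 0.0835 and 0.0887 per kb at the centre and at 0.0783 and 0.073 per kb at the ends. For both motifs the lowest bins lay in between, at 0.0661 per kb for CTCF and 0.0522 per kb for the octamer. AP-1 also rose, with 0.492 and 0.482 per kb at the centre and 0.308 and 0.344 at the ends. The E-box had 0.755 and 0.628 at the centre and 0.532 and 0.497 at the ends. The PU.1 rise was shared by other classes. Distal peaks had 0.183 and 0.174 at the centre and 0.0465 and 0.062 at the ends. Gene body peaks had 0.184 and 0.208 at the centre and 0.0803 and 0.0609 at the ends.

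**Figure D5:**
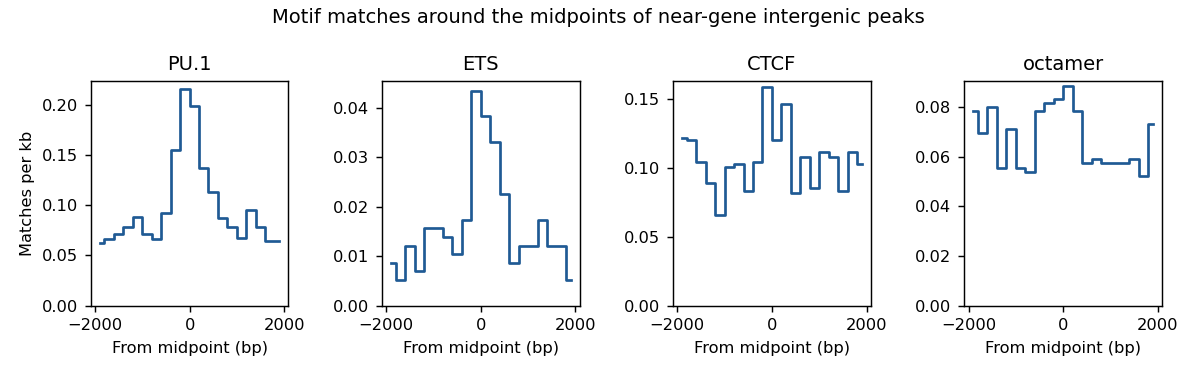
Motif matches per kb in bins of 200 bp from 2000 bp before to 2000 bp after the midpoints of the 2875 near-gene peaks, with a separate vertical scale for each motif. PU.1 and ETS rise in the middle bins, to 0.216 and 0.0435 per kb, whereas CTCF and octamer vary less along the window.

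CTCF matches were more frequent in the central 1 kb of narrower peaks. When the peaks were divided at their median width, a comparison added after the data were seen, the central 1 kb of the narrower ones held a CTCF match in 14.7 ± 4.3% and that of the wider ones in 8.55 ± 2.72% (higher in the narrower on 18 of 19 autosomes, adjusted exact p = 0.000229 over 12 sequence features). AP-1 matches were likewise more frequent in this window of narrower peaks, 36.9 ± 6.4% against 31.5 ± 4.5% on 13 of 19 autosomes (adjusted exact p = 0.0457). Median widths were 821 bp in the narrower and 1833.5 bp in the wider group. The window thus ran past the edges of many narrower peaks and covered only part of the wider ones. Shares over whole peaks were not compared. PU.1 had 13.6 ± 4.1% in narrower and 15.6 ± 3.6% in wider peaks, which did not pass (adjusted exact p = 0.334). Neither did the other 9 features. Among the set of peaks at or above the median width of all autosomal peaks, the CTCF share was 7.7%, and neither its difference from eligible windows nor that of RUNX passed.

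A later annotation placed transcript starts inside or within 1 kb of some of these peaks. RefSeq start sequences (GRCm38.p6) were found on mm9 by exact match of 31 bases, which placed 92.7% of 31393 autosomal starts. The 1 kb before and after such a start met 213 of the 2875 near-gene peaks (7.41%, 95% Wilson interval 6.51 to 8.42%), of which 162 belonged to a lncRNA and 54 to a coding gene, with some meeting both. Of the 54, 31 were starts of the nearest coding gene itself.

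With the search limited to the central 1 kb, 6.78 ± 2.5% of near-gene peaks met such a window per autosome, against 1.55 ± 0.43% of eligible windows (pooled background 1.57%), on 18 of 19 autosomes (exact sign-flip permutation test, adjusted exact p = 1.14e-05 over 3 comparisons). Gene body peaks had 2.81 ± 1.36% (adjusted exact p = 1.14e-05) and distal peaks 7.51 ± 4.44% (adjusted exact p = 0.483). Near-gene peaks that met a RefSeq start window were wider, with a median of 1543 bp against 1187 bp. They had a median CpG ratio of 0.349 against 0.242 in the others. These 213 were picked by overlap of the whole peak, which a wider peak meets more easily, so the selection itself favours width. With these 213 peaks left out, the 8 motifs above background still passed.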

How the data were processed

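ChIP-seq with an anti-HA antibody was done on 2 Rif1FH and 2 Rif1WT samples of activated splenic B cells. The antibody label names the anti-CD43 beads instead, and the protocol text was followed. As the submitters' processing notes and the study's methods give it, reads were trimmed with Trim Galore 0.6.4 and aligned to mm9 with Bowtie 1.0.0, keeping unique alignments, and peaks were called per replicate with MACS2 2.2.6. Wide domains were called with EDD, and intervals were merged with bedtools 2.27.1. The deposited list holds other values than measurements, namely positions (chromosome, start, end) that the authors combined from both Rif1FH replicates. Reads that align to more than 1 place are lost in this way, so that peaks in near-identical repeats can be missed. The list has no depth, so no counting error per peak can be given.

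Coordinates are 1-based on mm9, with GENCODE M1 genes. Peaks were placed in classes, and 1 paired value per autosome was compared by an exact two-sided sign-flip permutation test, with Benjamini-Hochberg adjustment over 14 planned tests, 11 motifs, or the added family named. Autosomes are not biological replicates, and shares per autosome are shown as mean ± SD. The threshold was an adjusted p of 0.05. Scripts ran in Python 3.11.15 with numpy 2.4.6, scipy 1.17.1 and pandas 2.3.3, and were tested on simulated data. Genes named are the 10 nearest to most peaks and each list gene nearest to a peak, except 1 list gene that is not reported here. Peaks named are the widest 3, those beside the 50 kb limit, and, added later, the series with most peaks and the motif examples. List symbols were matched as written, and 3 autosomal list genes whose symbols did not match, Spi1 among them, were not counted. The peaks, lists and tests were chosen with earlier results of these data known. A check of repeats was not made, since the genome used marks none.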

Additional observations from a re-analysis of the deposited data

How the results depend on the processing

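No paired analysis was possible because values of single replicates were not at hand, and for the same reason leaving out a replicate was not run. The repeat comparison was not run either. Near-gene against distal density, upstream share, GC content, CpG against eligible windows, genes with a start peak and closeness to another peak against distal peaks held in direction and in passing or not under each alternative run.

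Of the others, the 2 to 10 kb against 30 to 50 kb log2 ratio passed without wide intervals (0.35) and at its highest without 1 autosome (0.28). Width against gene body peaks passed for wider peaks only (71.6 bp), with merging (69.2 bp), with coding genes only (71.2 bp) and at its highest without 1 autosome (61.2 bp). The CpG difference from distal peaks passed with merging (0.013), coding genes only (0.0125) and without 1 autosome (0.0135). Closeness against gene body peaks passed with a 25 kb limit (7.92 points).

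Width against distal peaks, which did not pass, changed sign for wider peaks (-31.8 bp), without 1 autosome (-8.44 bp) and without peaks at a RefSeq start (-15.1 bp). The G-quadruplex difference from distal peaks, which did not pass, changed sign for wider peaks (-2.31 points), coding genes only (-0.0665), a 25 kb limit (-0.275), 45 to 50% GC (-1.15), without 1 autosome (-0.200) and without RefSeq starts (-0.53). Against eligible windows it reversed in 45 to 50% GC (-2.9).

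Among motifs, 6 to 8 passed as more frequent. Sign changes were ETS-IRF for wider peaks (-0.175), merging (-0.42) and without 1 autosome (-0.241), the octamer in 500 bp windows (0.272), 45 to 50% GC (2.82) and without RefSeq starts (0.0035), and STAT6 in 500 bp windows (0.213) and 45 to 50% GC (1.3). STAT6 passed as less frequent with merging (-1.63) and at its lowest without 1 autosome (-1.52). RUNX no longer passed for wider peaks (1.7) or at 25 kb (0.823), CTCF for wider peaks (0.639) and EBF1 in 45 to 50% GC (1.89). The cause of these changes was not tested. The GC, RefSeq start and padding alternatives were chosen after the data were seen.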

Other observations

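Peaks close to their gene and farther away had like sequence content, as a description without a test. Motifs were again searched in the central 1 kb of each peak. The 830 peaks at 2 to 10 kb held PU.1 matches in 16% and CTCF matches in 10.8%, and the 668 peaks beyond 30 kb held them in 14.4% and 11.2%. Median widths of these groups were 1230 and 1195.5 bp. E-box matches were in 44.6% of the 2116 upstream peaks and in 49.9% of the 759 downstream peaks. In this window, 15.2% of all near-gene peaks held none of the 8 motifs that were above background, and 0.591% held 5 of them.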
